A study of Mus musculus with 3 samples.

Results

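Immature post-mitotic neutrophils are the last marrow stages that still fill the secondary granules, after cell division has stopped and before the receptor Cxcr2 is displayed. They were selected on measured UMIs (counted molecules) in single-cell RNA profiles of mouse bone marrow, as cells in which the secondary granule genes Camp, Ngp and Ltf held at least 1% of the UMIs and S100a8 with S100a9 at least 2%. Those cells also had 0 UMIs of the proliferation genes Mki67 and Top2a, of Cxcr2 and of the B cell gene Cd79a. Of 71014 kept cells, 3158 met this rule, with 1003 in MI-E, 1547 in MI and 608 in Sham. In MI a branch of the coronary circulation, the LAD, was tied off to cause myocardial infarction, MI-E is MI with EMPA, an agent that the labels give by this abbreviation, and Sham is the control, which the labels give by this word alone. All mice were C57BL/6J, and all marrow came from femur and tibia and passed a Ficoll gradient, which separates cells by density and so bears on which granulocytes were loaded. Each group is 1 library, and the number, age and sex of the animals, the dose of EMPA and the time after surgery are not given in the sources used here. No difference below was therefore tested: every value describes these 3 libraries, and intervals are exact 95% intervals for counting error only.

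Neutrophil granules are filled in sequence as the precursor matures, with the serine proteases of primary granules first, lactoferrin and cathelicidin of secondary granules next, and gelatinase of tertiary granules after that. Secondary granule genes turn on before division stops, and Ly6g, the surface protein used to gate mouse neutrophils, is gained as the cells mature. Ly6g, which the rule did not use, stood at 501 CPM (UMIs per 1000000 UMIs of the chosen cells) in MI-E, 338 in MI and 743 in Sham, against 81.5, 65.0 and 64.4 in the kept cells outside the rule. Ltf, lactoferrin, had 11810 CPM in MI-E, 9685 in MI and 10695 in Sham, Ngp 43913, 40015 and 41020, and Camp, cathelicidin, 28938, 34929 and 37721. These last levels chose the cells and are given only as a description. The genes of the earlier promyelocyte stage were low. Their summed level over 6 genes, none of them at 0, was 479 CPM in MI-E, 361 in MI and 529 in Sham. That is 10.6%, 7.61% and 15.2% of the level over all kept cells.

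RNA of other cells was found in many of the chosen cells. At least 1 haemoglobin UMI was in 586 of the cells in MI-E, 1119 in MI and 584 in Sham, and at least 1 promyelocyte UMI in 540, 779 and 277. Cells with 10 or more haemoglobin UMIs numbered 13 in MI-E, 38 in MI and 57 in Sham and held 80.7%, 68.9% and 79.2% of the haemoglobin UMIs, and the summed haemoglobin level was 1637, 1386 and 4430 CPM. Cells with 10 or more UMIs of the monocyte genes Csf1r, Ccr2, Ms4a6c, F13a1 and Fn1 numbered 46, 79 and 36 and held 80.4%, 83.9% and 88.2% of those UMIs. The summed B lineage level was 236 CPM in MI-E, 160 in MI and 311 in Sham. A doublet caller marked 12.6% of the chosen cells in MI-E, 10.9% in MI and 12.2% in Sham. Doublets were kept in the main values, and results that turn on such cells carry the value without them. The chosen cells had medians of 2982 UMIs in MI-E, 3352 in MI and 3296.5 in Sham, and 3070682, 5588749 and 2184279 UMIs in all. Of their barcodes, 1 was shared by MI-E and MI, 2 by MI and Sham and 0 by MI-E and Sham.

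The share of these cells was highest in MI. They made up 4.46% (4.19 to 4.73) of kept cells in MI-E, 6.60% (6.28 to 6.92) in MI and 2.43% (2.24 to 2.63) in Sham. The share in MI was 2.72 times that in Sham (2.47 to 2.99), the share in MI-E was 0.676 times that in MI (0.623 to 0.732) and 1.84 times that in Sham (1.66 to 2.03). Since 0 UMIs are easier to reach in shallow cells, each cell was also thinned to 1000 UMIs before the rule, leaving out 3008 cells of MI-E, 2366 of MI and 1691 of Sham. The shares were then 13.1%, 18.8% and 6.37%, in the same order. Among the cells left in, 2549 in MI-E, 3968 in MI and 1488 in Sham met the rule when thinned, against 871, 1433 and 573 at full depth. The criteria of 0 UMIs thus depend strongly on depth. A 0 for Mki67, Top2a or Cxcr2 does not show that a chosen cell lacked that RNA.

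Within the S100a8 and S100a9 high cells without Cd79a the order was another one. This wider gate took 31.8% of kept cells in MI-E, 44.1% in MI and 12.8% in Sham. Immature post-mitotic neutrophils were 14.0% (13.2 to 14.8) of it in MI-E, 14.9% (14.3 to 15.6) in MI and 19.0% (17.7 to 20.4) in Sham. The remainder of the gate held 2464, 3582 and 989 cells with a Mki67 or Top2a UMI, 3269, 4351 and 1384 cells with a Cxcr2 UMI, and 423, 873 and 216 cells under the granule minimum. The gate was not made of neutrophils alone, nor of the same cells in each library: in the class under the granule minimum the summed monocyte markers had 12135 CPM in MI-E, 12067 in MI and 4282 in Sham, and the neutrophil markers 8469, 7459 and 24240. The part of this in the shares of the gate was not tested. The higher share of kept cells in both infarcted libraries thus stood beside a lower share of the S100-high gate. Shares give no number of cells in the marrow, and the part of the gradient in them was not tested. At the edge of the rule, cells with a granule share between 1% and 1.2% numbered 12 in MI-E, 23 in MI and 3 in Sham, and cells between 0.8% and 1% numbered 22, 24 and 10.

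**Figure D1:**
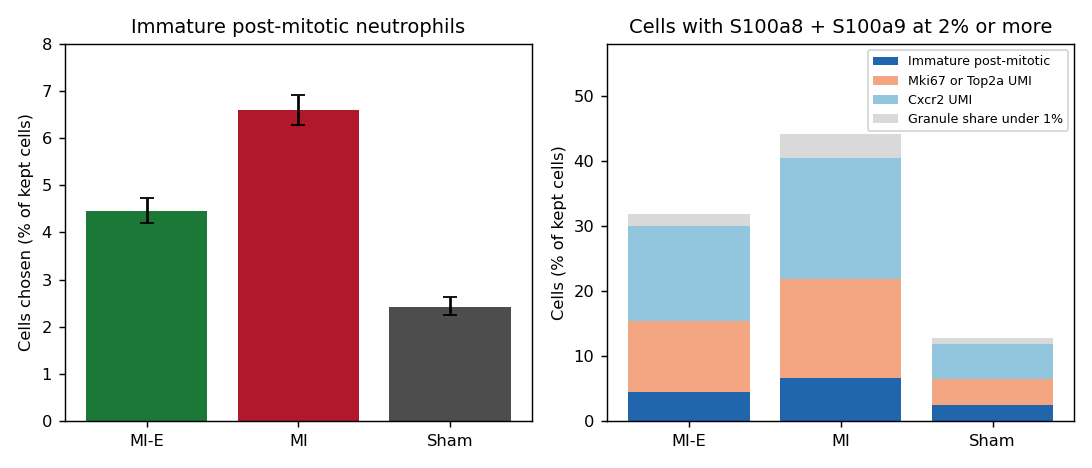
Left, share of kept cells that met the rule (%) in MI-E, MI and Sham, with bars for exact 95% intervals of counting error; right, stacked shares (% of kept cells) of the 4 classes of the S100a8 and S100a9 high cells. The chosen cells are 4.46%, 6.60% and 2.43% of kept cells, and the whole stack is 31.8%, 44.1% and 12.8%.

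Most granule cargo genes differed by less than 2-fold. Of 18 secondary and tertiary granule genes measured (24 listed; measured means an average of at least 10 CPM over the libraries and no part in the rule), 0 were at least 2-fold higher in MI than in Sham and 1 at least 2-fold lower, with a median log2 ratio of 0.24. Over all 6043 measured genes, 1.65% were at least 2-fold higher in MI and 1.92% at least 2-fold lower, and the median was -0.01. Lcn2, which binds iron-loading siderophores, had 14561 CPM in MI-E, 16349 in MI and 12620 in Sham. Chil3, a chitinase-like protein, had 8068, 6485 and 4618 CPM, so it was highest in MI-E and lowest in Sham. Mmp9, the gelatinase of tertiary granules, had 2383, 2587 and 1769 CPM, higher in both infarcted libraries. Fcnb, a lectin-like ficolin of the secondary granule, was the gene past the 2-fold line, with 108 CPM in MI-E, 68.2 in MI and 174 in Sham. It was 2.56-fold lower in MI than in Sham (2.21 to 2.96). Over all kept cells Fcnb had 118 CPM in MI-E, 108 in MI and 146 in Sham, above the chosen cells in MI-E and MI but not in Sham. A Fcnb UMI was in 16.3%, 15.7% and 23.7% of the chosen cells.

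Primary granule genes are made mostly before this stage. Of 15 measured, 1 was at least 2-fold higher and 1 at least 2-fold lower in MI than in Sham. Serpinb1a, an inhibitor of those proteases, had 701 CPM in MI-E, 688 in MI and 488 in Sham, and Cd63, a granule membrane protein, 321, 382 and 348 CPM. Elane, neutrophil elastase, had 141 CPM in MI-E, 74.1 in MI and 191 in Sham, but a single cell held 37.9%, 26.1% and 27.8% of its UMIs. Thinned, 5.74%, 5.44% and 6.46% of the chosen cells had an Elane UMI, against 9.87%, 9.71% and 7.12% of B cells. These shares lie below those of B cells and are not read as expression. The level was uneven among the chosen cells, with a highest thinned count of 27 Elane UMIs per 1000 in MI-E, 10 in MI and 20 in Sham. The part of background RNA in the Elane level was not tested. Prss34, a protease of the basophil and mast cell lineage, was the higher one, at 46.2, 31.1 and 10.99 CPM, and 1 cell held 40.2% of its UMIs in MI.

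MI over Sham asks how these cells differed after infarction. At least 2-fold higher in MI were 100 of 6043 measured genes, and at least 2-fold lower were 116. The stefin genes, small cytosolic inhibitors of cysteine proteases such as the cathepsins, stood at the top of the higher side. Of 8 stefin and cystatin genes measured (16 listed), 6 were at least 2-fold higher in MI, 0 at least 2-fold lower, and the median log2 ratio was 4.01. Cstdc5 had 94.8 CPM in MI-E, 217 in MI and 2.29 in Sham. That Sham level is 5 UMIs, 60.0% of them in 1 cell, so its ratio of 94.9 (40.6 to 293) rests on few molecules. Cstdc4 had 164, 213 and 9.16 CPM, 23.2 times as high in MI as in Sham (15.0 to 38.2). Stfa2l1 had 153, 262 and 23.3 CPM, 11.2 times as high (8.48 to 15.1). In each of these genes both infarcted libraries stood far above Sham, with MI-E below MI.

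Stfa3 had 46.9 CPM in MI-E, 75.2 in MI and 2.29 in Sham, and Stfa1 had 64.8, 72.3 and 14.7 CPM. Stfa2 had 49.5 CPM in MI-E and 87.9 in MI and 0 UMIs in Sham, where the limit of 3 counts is 1.37 CPM, so it was at least 64.0-fold higher in MI and at least 36.0-fold higher in MI-E. The 2 measured genes outside the chromosome 16 cluster differed less: Cstb, stefin B, had 77.5, 88.7 and 70.0 CPM and Cst3, the secreted cystatin C, 313, 354 and 451 CPM. The same 6-of-8 count was found without likely doublets, with at most 1 monocyte marker UMI per cell and without the top cell of each gene. Without cells under 800 genes and 1500 UMIs or above 5% mitochondrial UMIs, the log2 ratio of Cstdc5 was 8.84 in place of 6.57, and that of Stfa1 3.57 in place of 2.30.

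The stefin genes that carried this difference are neighbours in one array on chromosome 16, and their start regions are shown because they resemble one another. The 100 bases before the annotated start of each gene are given on its own strand, 5′ to 3′, from RefSeq on GRCm38.p6, with the motif TTTAAAA, which resembles the box bound by the TBP protein, in capitals. They lie on the minus strand at chr16:36408364-36408463 for Stfa2, chr16:36455393-36455492 for Stfa3 and chr16:36367571-36367670 for Cstdc5, and on the plus strand at chr16:36156711-36156810 for Stfa2l1, chr16:36277048-36277147 for Stfa1 and chr16:36184112-36184211 for Cstdc4.
Stfa2: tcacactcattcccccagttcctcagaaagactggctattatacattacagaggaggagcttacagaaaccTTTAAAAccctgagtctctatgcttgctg
Stfa2l1: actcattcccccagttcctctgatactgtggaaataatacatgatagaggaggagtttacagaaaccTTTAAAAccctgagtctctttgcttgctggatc
Stfa3: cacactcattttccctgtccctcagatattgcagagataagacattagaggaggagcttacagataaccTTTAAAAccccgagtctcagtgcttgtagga
Stfa1: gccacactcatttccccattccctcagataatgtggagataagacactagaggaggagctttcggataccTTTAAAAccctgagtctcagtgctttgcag
Cstdc4: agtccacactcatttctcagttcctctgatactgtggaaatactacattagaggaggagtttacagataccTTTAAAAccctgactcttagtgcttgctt
Cstdc5: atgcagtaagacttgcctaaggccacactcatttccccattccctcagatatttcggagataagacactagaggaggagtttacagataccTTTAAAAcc

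The motif ends between 23 and 27 bases before the start in 5 of these genes and 3 bases before it in Cstdc5. These distances are from the RefSeq starts. The starts of Stfa2l1 and Cstdc4 were the same in the gene coordinates of another annotation on mm10. Those coordinates start Stfa2 at chr16:36408457 and Cstdc5 at chr16:36367748, so most of the Stfa2 stretch and the whole Cstdc5 stretch lie within the gene. Searched on both strands, TTTAAAA was in 7 of 9 promoters of the array in the table and in 2.74% of all 32851 promoters over the same 100 bases. A match is a description of the letters and not of a factor bound there. Pairs of these 6 stretches were 50% to 82.4% identical, with a median of 75.7%. The last 300 bases of their transcripts, where 3' reads fall, were 57.4% to 98.7% identical, and the highest value was that of Stfa1 with Cstdc5. Counts of single genes of the array are therefore uncertain. The sum over the array was 578 CPM in MI-E, 934 in MI and 52.2 in Sham.

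With each cell thinned to 1000 UMIs, a UMI of the array was found in 19.3% (16.7 to 22.1) of the chosen cells in MI-E, 24.2% (22.02 to 26.5) in MI and 4.01% (2.56 to 5.96) in Sham, leaving out 132, 114 and 35 shallower cells. Without thinning the shares were 27.0%, 38.3% and 5.92%. B cells, which should lack these genes, had a UMI in 0.973% of cells in MI-E, 2.20% in MI and 0.250% in Sham at the same thinned depth, and their median depth before it was 1498.5, 1405 and 1715 UMIs, against 3214, 3525 and 3422 in the thinned chosen cells. At least 5 stefin UMIs per 1000 were found in 4.13% of the cells in MI-E, 5.65% in MI and 0.349% in Sham. Without thinning, the tenth of all chosen cells with the most stefin UMIs held 85.1% of them in MI-E and 82.5% in MI, a share that deeper cells can raise.

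Other genes of the MI side included a protease, a small calcium-binding protein and membrane proteins. Asprv1, an aspartic protease, had 138 CPM in MI-E, 318 in MI and 20.6 in Sham, 15.4 times as high in MI as in Sham (11.5 to 21.2). S100a6, a calcium-binding protein, had 7398, 10312 and 3033 CPM, 3.40 times as high in MI (3.31 to 3.49). Ifitm1, a membrane protein of the interferon-induced transmembrane family, had 90.5, 239.9 and 27.5 CPM, and its relative Ifitm2 had 483, 816 and 283 CPM. The log2 ratio of Ifitm1 in MI over Sham was 3.13, and 4.01 without likely doublets. Ifitm1 was 8.74 times as high in MI as in Sham, while Ifitm3, of the same family, was 2.22-fold lower, at 613 CPM in MI-E, 498 in MI and 1106 in Sham. Over all kept cells Ifitm1 had 245 CPM in MI-E, 455 in MI and 81.9 in Sham, above the chosen cells of each library. In Sham 1 cell held 28.3% of its UMIs in the chosen cells. The part of background RNA in its level was not tested. Bst1, an ectoenzyme of NAD metabolism, had 82.1, 107 and 28.4 CPM. Vcan, the proteoglycan versican and a gene of monocytes, had 70.0, 89.3 and 26.1 CPM, but 8.14, 10.2 and 0 CPM without likely doublets. Most of its level was thus in cells that the doublet caller marked.

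Some receptors were higher in MI. Of 23 chemoattractant and colony-stimulating factor receptor genes measured (26 listed), 4 were at least 2-fold higher in MI and 0 at least 2-fold lower, with a median log2 ratio of 0.26. Il1r2, the decoy receptor that binds interleukin-1 without signalling, had 89.2 CPM in MI-E, 131 in MI and 38.9 in Sham. Ccr1, a chemokine receptor, had 212, 181 and 87.9 CPM, Il4ra 60.2, 52.4 and 21.98 CPM, and Csf2rb2, a beta chain of the interleukin-3 receptor in mice, 20.2, 24.9 and 7.33 CPM. The listed receptors with the highest levels, Fpr2 for formylated peptides and Ltb4r1 for leukotriene B4, had 935, 781 and 505 CPM and 491, 409 and 402 CPM. Csf3r, the receptor of G-CSF, was on the other side, with 178, 122 and 157 CPM.

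Of 10 acute-phase and WAP-domain genes measured (17 listed), 3 were at least 2-fold higher in MI and 0 at least 2-fold lower. Lrg1, a secreted leucine-rich glycoprotein, had 930.7 CPM in MI-E, 857 in MI and 373 in Sham, with a log2 ratio of 1.18 for MI over Sham without likely doublets. Wfdc17 had 176, 213 and 64.6 CPM, 3.30 times as high in MI as in Sham, and without likely doublets 77.9, 149 and 16.9 CPM. Thinned, 8.73% of the chosen cells in MI-E, 13.5% in MI and 4.19% in Sham had a Wfdc17 UMI, and 16.4%, 23.7% and 8.72% without thinning. B cells had it in 8.11%, 8.98% and 4.28%, so the shares in MI-E and Sham were near that background. Saa3, an acute-phase serum amyloid, had 21.2 CPM in MI-E and 28.3 in MI and 0 UMIs in Sham. Thinned, 0.804% of the chosen cells in MI-E and 0.907% in MI had a Saa3 UMI, against 2.13% and 1.71% of B cells, so its level is read as background and not as expression. Wfdc21, the member with the highest level beside Lcn2, had 8284, 8357 and 6833 CPM. Among 20 lipid handling genes measured, Pla2g7, a phospholipase that cleaves platelet-activating factor, had 33.5, 52.1 and 4.12 CPM and Cpt1a, which admits fatty acids to mitochondria, 27.4, 46.2 and 17.4 CPM. Alox5ap and Psap, the members with the highest levels, had 1513, 1701 and 954 CPM and 538, 415 and 622 CPM. The list as a whole showed no such direction, with 2 genes at least 2-fold higher, 0 lower and a median of -0.06.

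**Figure D2:**
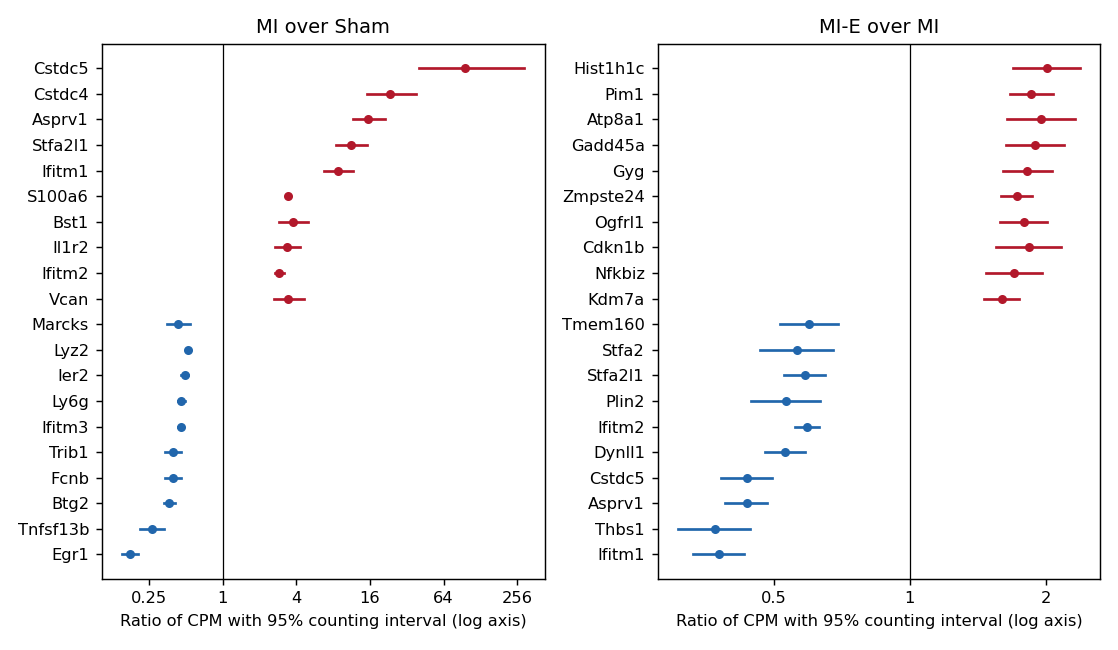
Ratio of CPM (log axis) of the 20 genes named by a fixed rule in each comparison, MI over Sham (left) and MI-E over MI (right), with points for the ratio and lines for the exact 95% counting interval; red is higher and blue lower in the first-named library. Cstdc5 at 94.9 has the widest interval, Egr1 lies 5.73-fold lower in MI, and on the right Hist1h1c is at 2.01 and Thbs1 2.70-fold lower.

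Ly6g (ENSMUSG00000022582, chr15:75155240-75159126 on mm10) was lower after infarction. It was 2.20-fold lower in MI than in Sham (2.05 to 2.35), and MI-E, at 501 CPM, stood between MI at 338 and Sham at 743. Thinned to 1000 UMIs, 38.2% of the chosen cells had a Ly6g UMI in MI-E, 26.9% in MI and 47.3% in Sham, against 0.144%, 0.341% and 0.135% of B cells, and without thinning 62.7%, 53.7% and 78.9%. The log2 ratio of -1.14 was -1.12 with the libraries weighted to the same mix of granule shares. Other genes of the lower side had other roles. Tnfsf13b, the B cell survival factor BAFF, had 46.2 CPM in MI-E, 23.1 in MI and 87.9 in Sham, 3.81-fold lower in MI (3.03 to 4.80). Lyz2, lysozyme, had 4971, 4651 and 9005 CPM, and Trib1, a pseudokinase that promotes turnover of C/EBP alpha, 105, 64.8 and 165 CPM. Marcks, an actin-binding substrate of protein kinase C, had 52.1, 31.8 and 73.7 CPM.

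Immediate early genes, which turn on within minutes of a stimulus, also of handling and dissociation, were lower in MI. Of 21 measured (25 listed), 7 were at least 2-fold lower in MI than in Sham, 0 at least 2-fold higher, and the median log2 ratio was -0.62. Egr1, a zinc finger factor, had 33.9 CPM in MI-E, 42.0 in MI and 241 in Sham, 5.73-fold lower in MI (4.90 to 6.71). Ier2 had 409, 348 and 716 CPM, and Btg2, an antiproliferative gene, 159.9, 132 and 361 CPM. Nr4a1, an orphan nuclear receptor, had 15.6, 13.6 and 60.4 CPM. Zfp36, which speeds the decay of cytokine transcripts, had 469, 329 and 580 CPM. Not all went that way: Klf2 had 331, 299 and 220 CPM and Mcl1, a survival factor of neutrophils, 403, 311 and 254 CPM. Handling time is not given for any library, and its part in these levels was not tested.

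Interferon-stimulated genes were lower in MI as well. Of 24 measured (50 listed), 10 were at least 2-fold lower in MI than in Sham, 0 at least 2-fold higher, and the median was -0.88. Ifitm3, given above, had the highest level. Its relatives Ifitm1 and Ifitm2, given above as higher in MI, are not in the list, so the count of 0 depends on the genes listed. Slfn4, a schlafen gene of myeloid cells, had 384 CPM in MI-E, 490 in MI and 255 in Sham and was, with Slfn1, one of 2 genes above a ratio of 1. Ifi27l2a had 40.7, 46.2 and 387 CPM, and Bst2, tetherin, 23.4, 23.6 and 93.4 CPM. Both infarcted libraries were below Sham in Ifi27l2a and Bst2. Rsad2, an antiviral enzyme, had 8.14, 7.16 and 26.1 CPM, and Oas3, which senses double-stranded RNA, 28.0, 29.3 and 55.4 CPM.

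The interferon count was smaller without cells that carried other RNA. Without likely doublets 4 of 19 measured genes were at least 2-fold lower in MI, in place of 10 of 24, and the median was -0.55, and the count was also 4 of 19 with at most 1 monocyte marker UMI per cell. Without likely doublets Ifi27l2a had 12.0 CPM in MI-E, 18.4 in MI and 141 in Sham, a log2 ratio of -2.94 in MI over Sham, and Ifitm3 had 541, 406 and 872 CPM, a log2 ratio of -1.10. Thinned, 1.72% of the chosen cells in MI-E, 3.21% in MI and 13.8% in Sham had an Ifi27l2a UMI, against 13.9%, 19.5% and 45.2% of B cells. The shares in the chosen cells lie below those of B cells and are not read as expression, but this comparison does not show its absence. At least 5 interferon-list UMIs per 1000 were found in 6.43% of the chosen cells in MI-E, 6.21% in MI and 18.3% in Sham, a sum that includes Ifi27l2a. At least 1 was found in 80.4%, 80.8% and 87.4% of the chosen cells and in 78.4%, 79.7% and 86.7% of B cells.

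**Figure D3:**
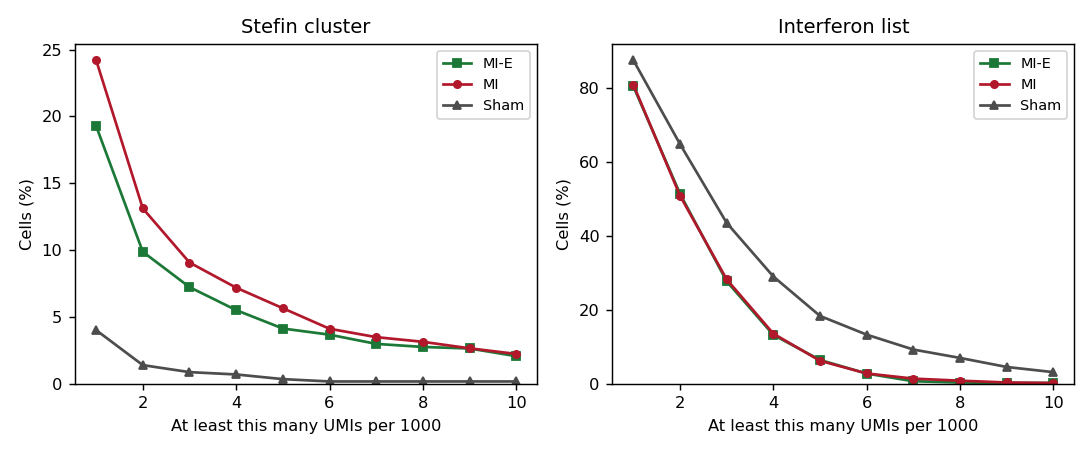
Share of the chosen cells (%) with at least the number of UMIs per 1000 on the x axis, for the summed stefin array (left) and the summed interferon list (right), each cell thinned to 1000 UMIs; green squares are MI-E, red circles MI and grey triangles Sham. At 5 UMIs the stefin shares are 4.13%, 5.65% and 0.349%, and the interferon shares 6.43%, 6.21% and 18.3%.

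Inflammatory mediators were found on both sides. Of 18 NF-kB and inflammatory cytokine genes measured (30 listed), 1 was at least 2-fold higher and 3 at least 2-fold lower in MI than in Sham. Nfkbia, the inhibitor of NF-kB, had 223 CPM in MI-E, 185 in MI and 108 in Sham, and Tnfaip2 had 155, 119 and 168 CPM. Nfkbiz, an atypical inhibitor that acts in the nucleus, had 124, 72.6 and 150.2 CPM. Il1b, interleukin-1 beta, had 10.4, 5.19 and 16.5 CPM. The gene counted as higher, the chemokine Ccl4, had 8.79, 22.9 and 9.16 CPM, with 68.8% of its MI UMIs in 1 cell and a log2 ratio of -0.47 without likely doublets in place of 1.32. Slc7a11, the cystine importer, had 17.9, 7.34 and 55.4 CPM and was 7.55-fold lower in MI, in a list of 22 redox genes of which 1 was at least 2-fold higher and 1 at least 2-fold lower. The redox members with the highest levels, Prdx5 and Ftl1, had 1733, 2060 and 2542 CPM and 975, 1162 and 1285 CPM.

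Most genes of cell division and antigen display differed by less than 2-fold. All 14 S phase genes measured were below a ratio of 1 in MI over Sham, none past 2-fold, with a median of -0.40. Slbp had 53.4 CPM in MI-E, 40.4 in MI and 49.0 in Sham, and Pcna, the sliding clamp of replication, 44.9, 41.0 and 55.4 CPM. Of 17 MHC class I genes measured, 1 was at least 2-fold lower and the median was -0.29. B2m, the light chain of class I molecules, had 571, 441 and 810 CPM and H2-D1 516, 536 and 556 CPM. The 49 oxidative phosphorylation genes had a median of 0.16 with 0 past 2-fold in either direction. The 28 neutrophil transcription factors had 0 past 2-fold in either direction and a median of -0.05. Spi1, which drives the myeloid lineage, had 420.1 CPM in MI-E, 416 in MI and 409 in Sham, and Mxd1, an antagonist of Myc, 548, 477 and 371 CPM. Cebpe, the factor needed for secondary granules, had 373, 412 and 446 CPM.

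**Figure D4:**
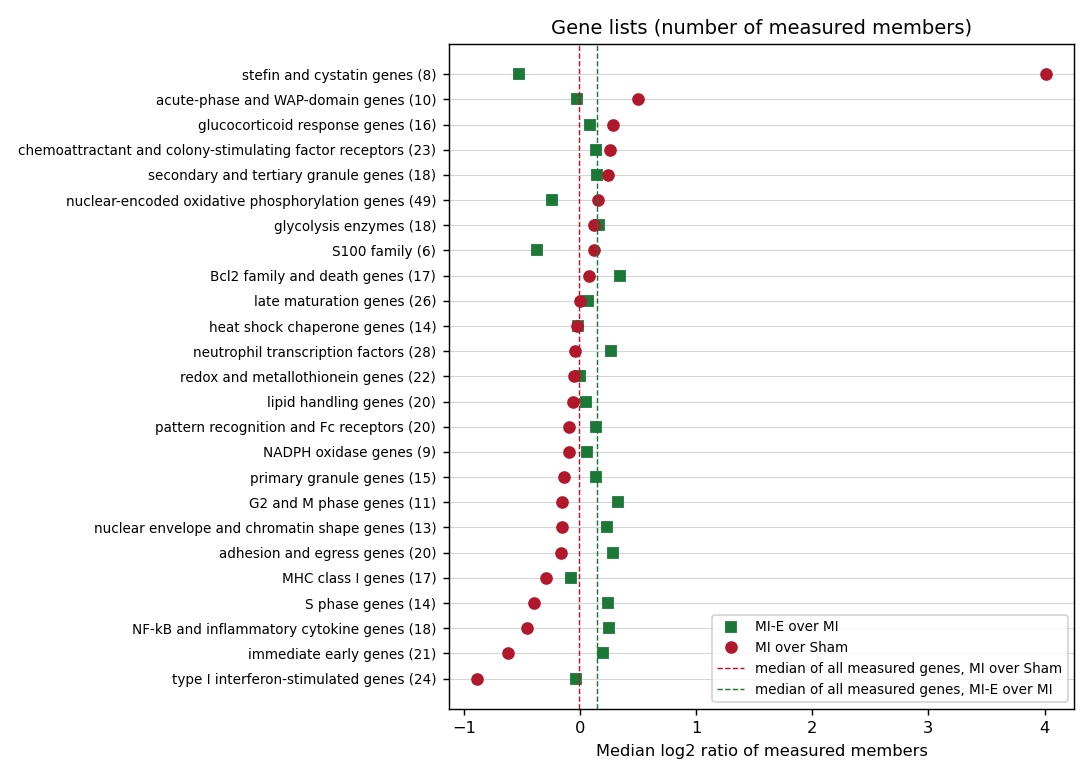
Median log2 ratio of the measured members of each gene list (number in brackets), with green squares for MI-E over MI and red circles for MI over Sham; dashed lines mark the median of all 6043 measured genes, at 0.14 and -0.01. The stefin list is at -0.53 and 4.01 and the interferon list at -0.03 and -0.88.

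MI-E over MI asks how the treated infarct differed from the untreated one, and its differences were smaller. At least 2-fold higher in MI-E were 33 of 6043 genes (0.546%), and at least 2-fold lower were 15 (0.248%). The median log2 ratio over all genes was 0.14, with 68.1% of genes above a ratio of 1. Scaling by the median of ratios in place of totals moved that median by -0.14 and gave 15 genes higher and 25 lower, so the share of higher among called genes was 37.5% in place of 68.75%. A ratio of MI-E over MI is therefore read below against 0.14.

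The stefin array and its companions on the MI side were lower in MI-E. All 8 stefin and cystatin genes were below a ratio of 1 under either scaling, 1 of them at least 2-fold, with a median log2 ratio of -0.53. Cstdc5 was 2.29-fold lower in MI-E than in MI (2.02 to 2.61), Stfa2l1 1.71-fold (1.54 to 1.90) and Stfa2 1.77-fold (1.48 to 2.14). Ifitm1 was 2.65-fold lower in MI-E (2.33 to 3.03), Asprv1 2.30-fold (2.07 to 2.56) and Ifitm2 1.69-fold (1.59 to 1.79). S100a6 was 1.39-fold lower (1.37 to 1.42), and S100a11, the next of 6 measured S100 genes by level, had 1922 CPM in MI-E, 2476 in MI and 2406 in Sham. Some of these genes were also higher in MI-E than in Sham, by 6.72 times for Asprv1, 3.30 times for Ifitm1 and 2.44 times for S100a6. Thbs1, the matrix glycoprotein thrombospondin 1, was unlike them: it had 45.9 CPM in MI-E, 124 in MI and 132 in Sham, so MI-E stood below both. Plin2, which coats lipid droplets, had 55.0, 104 and 52.2 CPM, and Dynll1, a dynein light chain, 156, 295 and 241 CPM. Tmem160 had 78.2, 130.4 and 92.02 CPM.

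The higher side in MI-E held genes of several roles. Pim1, a kinase induced by cytokine receptors, had 218 CPM in MI-E, 117 in MI and 55.4 in Sham, 1.86 times as high in MI-E as in MI (1.67 to 2.07) and 3.93 times as high as in Sham. Hist1h1c, a linker histone, had 93.5, 46.5 and 96.1 CPM, a ratio of 2.01 to MI (1.69 to 2.39). Over all kept cells Pim1 had 244 CPM in MI-E, 145 in MI and 142 in Sham, and Hist1h1c 111, 79.1 and 153 CPM. Both were thus lower in the chosen cells of each library, unlike Gadd45a, Zmpste24, Nfkbiz and Kdm7a, which were higher there. H1f0, the linker histone of non-dividing cells, had 68.1, 15.9 and 15.6 CPM, with a log2 ratio of 2.10 to MI. Cdkn1b, the cyclin-dependent kinase inhibitor p27, had 96.1, 52.4 and 77.4 CPM, and Gadd45a, a growth arrest gene of the DNA damage response, 119.5, 63.2 and 137 CPM. Zmpste24, the protease that matures lamin A, had 379, 219.9 and 318 CPM. Nfkbiz was 1.70 times as high in MI-E as in MI (1.48 to 1.96). Atp8a1, a phospholipid flippase, had 89.9, 46.0 and 70.0 CPM, Gyg, the primer protein of glycogen synthesis, 163, 89.8 and 132 CPM, Ogfrl1 174, 97.5 and 179 CPM, and the histone demethylase Kdm7a 295, 185 and 199 CPM. Several of these, among them Hist1h1c, Gadd45a and Ogfrl1, had levels in MI-E near those in Sham and a lower one in MI.

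Read against the background of 0.14, list medians in MI-E over MI lay on both sides. Over all genes 68.1% were above a ratio of 1, a share that the Bcl2 and NF-kB lists below did not exceed. The highest were those of the Bcl2 family and death genes, at 0.34 with 11 of 17 above a ratio of 1, and the G2 and M phase genes, at 0.32 with 9 of 11 above. The transcription factors were at 0.27 with 22 of 28 above, the NF-kB and cytokine genes at 0.25 with 12 of 18 and the S phase genes at 0.24 with 14 of 14, or 9 of 14 under median-of-ratios scaling. The lowest were the stefin and cystatin genes, given above at -0.53, and the S100 family, at -0.37 with 5 of 6 below. Of 13 nuclear envelope and chromatin genes measured, 2 were at least 2-fold higher, Hist1h1c and H1f0, and the median was 0.23. The log2 ratio of Hist1h1c was 1.01, and median-of-ratios scaling moved the median of all genes by -0.14, so its call depends on the scaling. The members with the highest levels, Hmgb2 and H3f3a, had 1973 CPM in MI-E, 1608 in MI and 1636 in Sham and 1409, 1393 and 1519 CPM. Of 20 adhesion and egress genes, 17 were above a ratio of 1 with a median of 0.29, or 13 under median-of-ratios scaling. Ly6g, in that list, was 1.48 times as high in MI-E as in MI (1.38 to 1.58). Cd24a, a surface sialoglycoprotein, had 843, 566 and 683 CPM and Ly6c2 929, 762 and 961 CPM. Itgal, the integrin chain of LFA-1, had 176, 113 and 153 CPM. On the low side, 41 of 49 oxidative phosphorylation genes were below 1, with a median of -0.24 and 0 past 2-fold. Cox8a had 468 CPM in MI-E, 568 in MI and 535 in Sham, and Atp5l, the next by level, 501, 590.3 and 460 CPM. For the interferon list the median was -0.03, with 0 genes past 2-fold, so MI-E and MI lay together below Sham.

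MI-E over Sham shares a library with each comparison above. At least 2-fold higher in MI-E were 104 genes (1.72%), and at least 2-fold lower were 58 (0.96%), or 76 and 75 under median-of-ratios scaling. Of the stefin list 6 of 8 were at least 2-fold higher, of the receptors 4 of 23, of the interferon list 6 of 24 at least 2-fold lower (8 under that scaling) and of the immediate early genes 5 of 21. Cstdc4 was 17.9 times as high in MI-E as in Sham and Stfa2l1 6.57 times, while Egr1 was 7.11-fold lower. The haemoglobin genes were also lower, with Hbb-bs at 620 CPM in MI-E, 700.2 in MI and 1788 in Sham.

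The chosen cells differed among themselves along the granule share. Split by the summed share of Camp, Ngp and Ltf, 7.18% of them were between 1% and 2% in MI-E, 6.14% in MI and 5.43% in Sham, 16.3%, 14.5% and 13.3% between 2% and 5%, 41.3%, 47.1% and 38.3% between 5% and 10%, and 35.3%, 32.3% and 42.9% at 10% or more. Cells in the lowest bin were shallower in MI-E, with a median of 1383 UMIs, than in MI, with 1916, and Sham, with 2188. These bins are built from the rule genes, so how other genes run along them is a description.

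Retnlg, a resistin-like protein of maturing neutrophils, had 9921 CPM in the lowest bin and 798 in the highest in MI-E, 15638 and 612 in MI and 17364 and 586 in Sham. Lcn2 ran the other way, with 5002 and 17584 CPM in MI-E, 7286 and 20359 in MI and 5353 and 16205 in Sham. The lowest bin also held promyelocyte RNA, with a summed level of 5002 CPM in MI-E, 2930 in MI and 902 in Sham for the promyelocyte list. Those cells are few, 72 in MI-E, 95 in MI and 33 in Sham.

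Ly6g and S100a6 kept one order of the libraries along this axis. Ly6g stood in the order Sham, MI-E, MI in all 4 bins, at 570 CPM in MI-E, 376 in MI and 829 in Sham in the top bin and 257, 173 and 476 in the lowest, where the counting intervals of MI-E and MI overlapped. S100a6 was highest in MI and lowest in Sham in every bin, with 6113, 8111 and 1581 CPM in the top one. The stefin cluster had 2180 CPM in the lowest bin and 381 in the top one in MI-E, 2183 and 1169 in MI, and 85.4 and 12.96 in Sham. In the top bin of MI 428 CPM of it was Cstdc5. In the lowest bin MI-E stood above MI for Cstdc4, with 1350.4 CPM in MI-E, 852 in MI and 12.2 in Sham, and for Cstdc5, with 234 in MI-E, 86.6 in MI and 0 in Sham. The summed type I interferon-stimulated genes had 2165 CPM in the lowest bin and 1490.0 in the top one in MI-E, 2069 and 1429.8 in MI, and 6182 and 1911 in Sham. The gap between Sham and the infarcted libraries was smallest in the bin richest in granule RNA.

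**Figure D5:**
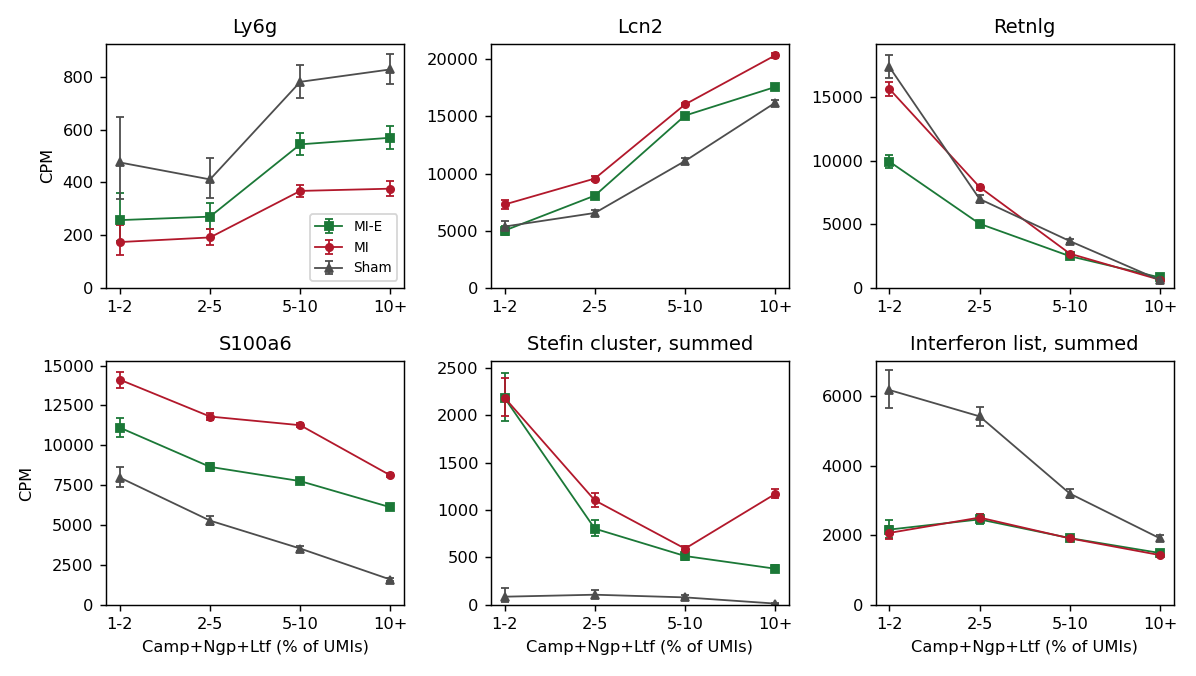
Levels (CPM, axes from 0) of Ly6g, Lcn2, Retnlg, S100a6, the summed stefin cluster and the summed interferon list in 4 bins of the share of Camp, Ngp and Ltf among UMIs (%), with green squares for MI-E, red circles for MI, grey triangles for Sham and bars for exact 95% Poisson intervals. Ly6g is highest in Sham and lowest in MI in all 4 bins, and the stefin cluster reaches 2180, 2183 and 85.4 CPM in the lowest bin.

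The same genes were read in the other classes of the S100-high gate, which were not the same cells in each library. In the dividing class the lower quartile of the granule share was 0.299% in MI-E, 0.108% in MI and 0.994% in Sham, the summed monocyte markers had 3822, 3891 and 2372 CPM and the erythroid markers 3739, 4713 and 16431 CPM. Ly6g had 107 CPM in MI-E, 66.6 in MI and 177 in Sham in dividing cells (those with a Mki67 or Top2a UMI) and 456, 269.7 and 567 in cells with a Cxcr2 UMI, the same order in each class. S100a6 had 3103, 4111 and 1181 CPM in dividing cells and 12324, 12856 and 7393 in Cxcr2 positive cells, so the gap between MI and Sham was 1.77 on the log2 scale in the chosen cells and 0.80 in the Cxcr2 positive ones. Stfa2l1 had 95.6, 155 and 19.99 CPM in dividing cells and 615, 486 and 167 in Cxcr2 positive cells, where MI-E stood above MI. Cstdc4 did the same, at 854, 442 and 286 CPM in Cxcr2 positive cells. In the chosen cells the order of MI-E and MI was the opposite for both genes. Egr1 had 11.8, 16.4 and 70.1 CPM in dividing cells and 72.4, 85.6 and 399.8 in Cxcr2 positive cells. Pim1 had 193, 113 and 59.6 CPM in dividing cells and 399, 231 and 234 in Cxcr2 positive cells, so MI-E was above MI in each of these classes. With 1 library per group none of these differences between classes was tested.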

How the data were processed

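Per the labels, marrow was profiled with 10x 3' v3.1 chemistry. The authors deposited whole-number UMI counts per gene and barcode. The submitters' processing notes name Cell Ranger 5.0.1 and mm10 but no gene annotation release. Barcodes under 300 genes or 500 UMIs, or above 10% mitochondrial UMIs, were dropped, which left 22506 MI-E, 23455 MI, 25053 Sham cells, from 109451500, 127330601 and 99657072 UMIs over all barcodes. The cells, the 25 gene lists and the 16 marker lists were chosen with earlier results of these data known.

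UMIs were summed per library over the chosen cells and scaled to CPM. Ratios carry exact conditional binomial, levels exact Poisson and shares exact Clopper-Pearson intervals, for counting error only. No test was run, since each group is 1 library. Doublets were scored with scrublet in scanpy 1.11.5 and removed only as an alternative. B cells for detection had at least 3 Cd79a UMIs. Named genes had a mean of at least 50 CPM in the libraries compared, without rule, mitochondrial, ribosomal protein, receptor segment and model genes and genes below 0.5 of the level over all kept cells in each library. The first 10 in each direction by the interval bound nearest 1 were named, with the rule genes, the 2 highest members of each list described, and other list members chosen after their values were seen. Further tools were Python 3.11.15, numpy 2.4.6, scipy 1.17.1 and pandas 2.3.3, and the ratio code was checked on simulated counts.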

Additional observations from a re-analysis of the deposited data

How the results depend on the processing

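Of 2-fold counts, 26 of 90 moved by more than 1.5 times, of 3296 gene ratios 10 turned, of 1122 list medians 0 turned, and of 27 shares 2 turned. A gene ratio or list median counted as turned only if it changed sign and its main value lay beyond its counting error. Smaller list medians could change sign uncounted, since median-of-ratios scaling moved the median of all genes by -0.14 for MI-E over MI. Thinning the chosen cells gave 259 higher and 287 lower for MI over Sham, 191 and 89 for MI-E over MI and 368 and 193 for MI-E over Sham. Weighting cells equally gave 178 higher for MI over Sham, 113 higher and 26 lower for MI-E over MI and 261 higher for MI-E over Sham. A minimum of 50 CPM gave 24 and 27, 2 and 4, and 24 and 10 in those comparisons, and a minimum of 1 UMI per library 631 and 1045, 664 and 414, and 858 and 784, as fewer or more low genes entered. For MI-E over MI a granule minimum of 5% gave 31 lower, totals without the rule genes 20 higher, and median-of-ratios scaling 15 higher and 25 lower. Log2 ratios that turned for MI-E over MI were Btg2 (-0.037) and Hbb-bs (0.18) when thinned, Hbb-bs at the 5% minimum (0.12), Lyz2 (-0.041), Lrg1 (-0.017) and Pirb (-0.029) under that scaling, and Tsc22d3 (0.018) and Hbb-bs (0.18) with equal weights. Fkbp5 turned for MI-E over Sham when thinned (-0.039) and Ccl4 for MI over Sham without doublets (-0.47). The log2 ratio of the share for MI over Sham was 1.27 under the stricter filter (main 1.44), and that for MI-E over Sham 1.04 with thinned cells (main 0.88). Over S100-high cells it was -0.35 for MI over Sham, -0.093 for MI-E over MI and -0.44 for MI-E over Sham, an alternative added after seeing the data, as were the removals by haemoglobin and monocyte UMIs. Except where stated, the cause was not tested. No paired analysis was possible because each group has 1 library. Genes under about 10 CPM rest on few UMIs, most of all in Sham.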
